A study of Mus musculus with 4 samples.

Results

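The aminoacyl-tRNA synthetases are the enzymes that join each amino acid to its transfer RNA, and 36 genes encoding them were followed in T cells of the mouse. The 36 genes were taken by symbol from the 50600 genes counted, through GENCODE identifiers, and all 36 were found. They were split by symbol into 20 cytosolic enzymes and 16 mitochondrial enzymes, the latter being those whose symbol ends in 2. The cells were primary T cells of the mouse strain C57BL/6NJ, and RNA was sequenced in 4 libraries that the labels number as biological replicates 1 to 4 of 1 group. Alignment names in the file headers carry the words Th0, activated and sorted with a time of 72 h, the linked culture protocol is one for CD4+ T cell differentiation, and the linked library protocol is named for PolyA+ RNA although the assay is called total RNA-seq. All 4 libraries carry 1 donor entry, age is given as unknown and sex was not collected, so the separateness of the replicates is not known and every spread below is that between these libraries. No untreated, resting or otherwise different cells were included, and comparisons were therefore made between genes inside each library.

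Each synthetase recognises 1 amino acid and the transfer RNAs that decode it, and it spends ATP to form the bond that the ribosome later uses. The enzymes fall into 2 structural classes with unrelated catalytic folds. Most mitochondrial enzymes are encoded in the nucleus by genes of their own, whereas glycyl- and lysyl-tRNA synthetase of both compartments come from the single genes Gars and Kars. Eprs encodes a fused enzyme for glutamate and proline, and Farsa and Farsb encode the subunits of cytosolic phenylalanyl-tRNA synthetase. Several cytosolic enzymes are bound in a multisynthetase complex. Many genes for cytosolic enzymes are known targets of ATF4, the transcription factor of the amino acid response, which binds composite elements in their promoters. T cells enlarge and raise protein synthesis on activation.

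Letters of the ATF4 element type were found in the promoters of several cytosolic genes, and the matching stretches are shown because they are a feature of these genes that the choice by symbol did not use. The letters TGATGNAAN were searched on both strands, so that NTTNCATCA is the same match read on the other strand, from 250 bases before to 50 bases after each start in the RefSeq table of the assembly GRCm38.p6. The window was held for 13 cytosolic and 14 mitochondrial genes. The letters were found for 5 of the 13 cytosolic genes (38.5%), for 0 of the 14 mitochondrial genes and for 4.50% of the 27025 genes in the table. Counted by window, 3.95% of 32851 windows of this length held them. For each of the 5 genes 1 match is printed, 5′ to 3′ on the strand of the gene with 10 flanking bases on either side, in lower case with the matched letters in capitals.
Aars, chr8:111033840-111033868: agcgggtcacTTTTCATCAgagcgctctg
Gars, chr6:55037960-55037988: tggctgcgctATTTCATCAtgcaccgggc
Iars, chr13:49682126-49682154: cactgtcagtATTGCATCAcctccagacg
Tars, chr15:11399656-11399684: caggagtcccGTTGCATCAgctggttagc
Yars, chr4:129189896-129189924: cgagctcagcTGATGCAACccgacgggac
The printed matches began at 9 (Aars), -31 (Gars), 7 (Iars), -16 (Tars) and 4 (Yars) relative to the RefSeq start of transcription. Aars held another match, beginning at -113, which is not printed. Tars is on the minus strand of its chromosome and the other 4 genes are on the plus strand. The pattern stood as TGATG in Yars and as its reverse complement in the other 4 printed matches. Mean levels of the 5 genes with the letters ran from 70.8 TPM for Yars to 346.4 TPM for Gars with a median of 168.6 TPM, against a median of 143.1 TPM and a range from 59.1 to 244.9 TPM in the 8 cytosolic genes whose window lacked them. The ranges overlapped over most of their extent. A match is a string of letters and not a measured binding site, and its absence covers only this window.

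Depth was 34978213, 118937382, 42274502 and 95356041 counts in replicates 1 to 4, of which the 36 genes took 0.734, 0.609, 0.658 and 0.604%. The lowest count of any of them was 569, for Wars2 in replicate 1, where counting error is 4.19% of the value. The T cell label was checked on markers, with Trac at 1892 ± 92.1 TPM (SD, n = 4) and Cd4 at 976 ± 29.3 TPM, whereas Cd8a stood at 0.267 TPM and each of 11 markers of other cells at 1.48 TPM or lower on average. In bulk RNA of this kind, fewer cells of a type and less RNA per cell cannot be told apart.

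All 36 genes were transcribed, and the cytosolic enzymes stood well above the mitochondrial ones. Levels are given as TPM, a length-normalized transcript abundance, computed from the counts and the summed length of all annotated exons of each gene. Each of the 36 had 1 TPM or more in every library, where 49.9% of 21764 protein-coding genes did, and 34 had 10 TPM or more in every library, where 37.8% did. Only Nars2 and Wars2 fell short of the higher limit. Median TPM of the 20 cytosolic enzymes was 151.6, 150.1, 149.3 and 156.8 in replicates 1 to 4. For the 16 mitochondrial enzymes it was 35.5, 39.8, 40.1 and 40.2, close to the median of 31.9 TPM over the 10868 protein-coding genes that reached 1 TPM in every library. The difference of the list medians was 1.96 ± 0.09 on the log2(TPM + 0.1) scale (SD, n = 4), a ratio of 3.90, and the cytosolic median was the higher in every library. Summed over the list, the cytosolic transcripts made up 3412 ± 99.7 TPM. Mitochondrial transcripts summed to 873 ± 171 TPM, and to 545 ± 18.1 TPM without Lars2, whose level differed strongly between libraries. Leaving Lars2 out, 288 of the 300 possible pairings of a cytosolic with a mitochondrial gene had the cytosolic gene higher in all 4 libraries, 6 had it lower in all 4 and 6 were mixed.

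**Figure D1:**
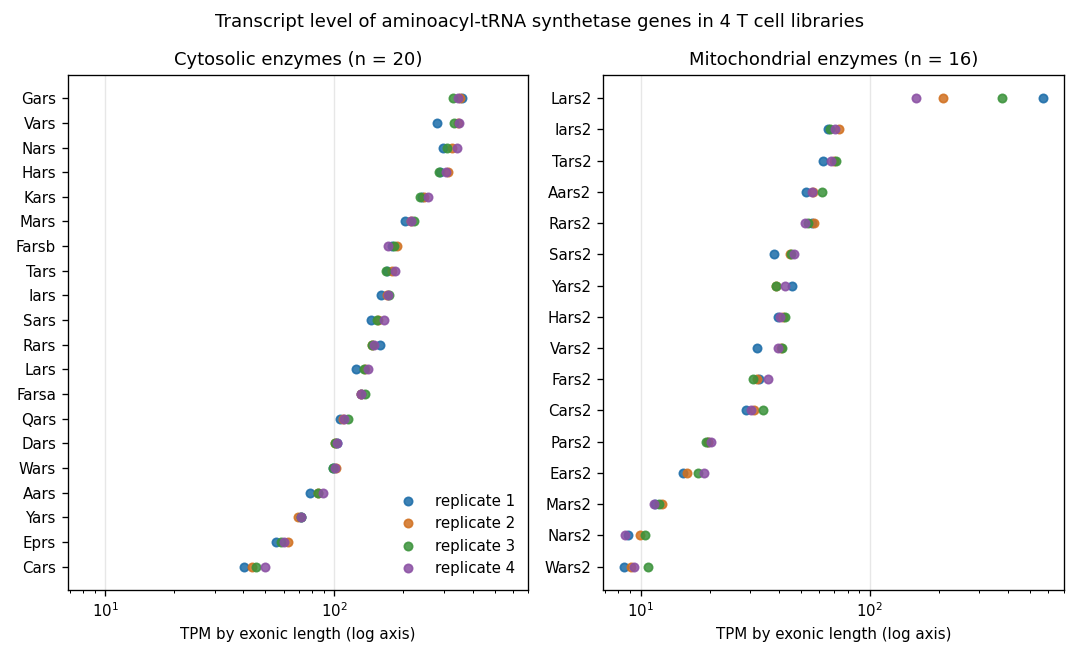
Transcript level of each of the 36 genes in the 4 libraries, as TPM by exonic length on a log axis, with cytosolic enzymes on the left and mitochondrial enzymes on the right, each sorted by mean. Points are single libraries. The cytosolic genes lie between 44.8 and 346.4 TPM on average, and all mitochondrial genes but Lars2 lie at 69.1 TPM or lower.

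Gars, for glycyl-tRNA synthetase, was the most abundant cytosolic member, at 360.3, 351.9, 329.3 and 344.2 TPM in replicates 1 to 4 (346.4 ± 13.2), above 98.0% of protein-coding genes. Vars, the valyl enzyme, had 280.4, 345.5, 332.7 and 349.4 TPM (327.0 ± 31.9), and its low value was in replicate 1. Nars, the asparaginyl enzyme, had 296.4, 326.4, 310.1 and 342.2 TPM (318.8 ± 19.8). The libraries of these 3 genes overlapped, and neither Gars against Vars nor Vars against Nars kept 1 direction in all 4. Hars, the histidyl enzyme, followed at 288.7, 312.8, 286.3 and 308.0 TPM (299.0 ± 13.4). Kars, the lysyl enzyme, stood next at 239.8, 246.2, 237.1 and 256.6 TPM (244.9 ± 8.66), and its libraries lay below all those of the 4 genes before it. Gars and Kars, the genes that serve both compartments, were thus both among the 5 highest.

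The 12 genes in the middle of the cytosolic order averaged from 84.3 to 214.3 TPM. Mars, which supplies the methionyl-tRNA with which translation starts, averaged 214.3 ± 7.29 TPM. Below it stood Farsb at 179.2 ± 7.21, Tars at 175.1 ± 7.74, Iars at 168.6 ± 5.83, Sars at 154.3 ± 8.38 and Rars at 149.6 ± 6.21 TPM, the threonyl, isoleucyl, seryl and arginyl enzymes after the phenylalanyl subunit. Lars (leucyl, 133.6 ± 6.61), Farsa (131.9 ± 2.76), Qars (glutaminyl, 109.6 ± 3.28) and Dars (aspartyl, 101.5 ± 1.09) came next. Wars, the tryptophanyl enzyme, had 99.6 ± 1.60 TPM and Aars, the alanyl enzyme, 84.3 ± 4.51 TPM. Of the 19 neighbours in this order, 12 kept 1 direction in all 4 libraries. The 7 that did not were Gars and Vars, Vars and Nars, Farsb and Tars, Tars and Iars, Sars and Rars, Lars and Farsa, and Dars and Wars.

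The bottom of the cytosolic order was held by 3 genes. Yars, the tyrosyl enzyme, had 71.5, 69.0, 71.3 and 71.4 TPM (70.8 ± 1.18), nearly the same in each library. Eprs, the fused glutamyl-prolyl enzyme, had 55.4, 62.5, 58.5 and 60.1 TPM (59.1 ± 2.95). Cars, the cysteinyl enzyme, was lowest at 40.2, 43.8, 45.5 and 49.8 TPM (44.8 ± 3.96). The 3 genes did not overlap in any library. From Gars to Cars the cytosolic means spanned 7.73-fold.

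Among the mitochondrial enzymes Lars2, the leucyl enzyme of mitochondria, had the highest mean and by far the widest spread, at 568.4, 208.1, 376.1 and 159.6 TPM (328.0 ± 185). Replicates 1 and 3 were high and replicates 2 and 4 low. Even the lowest of these values exceeded every other mitochondrial enzyme. Iars2 (isoleucyl) followed at 65.4, 73.5, 67.0 and 70.5 TPM (69.1 ± 3.61), and Tars2 (threonyl) at 62.5, 69.6, 71.3 and 67.6 TPM (67.8 ± 3.79). These genes overlapped across libraries. Aars2 (alanyl) had 52.9, 56.3, 61.6 and 56.0 TPM (56.7 ± 3.61), and Rars2 (arginyl) 55.8, 56.9, 53.7 and 52.1 TPM (54.6 ± 2.12), so that they too overlapped.

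The middle of the mitochondrial list held Sars2 (43.9 ± 3.83 TPM), Yars2 (41.6 ± 3.36), Hars2 (41.3 ± 1.18), Vars2 (38.5 ± 4.23), Fars2 (33.0 ± 2.12) and Cars2 (31.2 ± 2.36). Unlike the cytosolic phenylalanyl enzyme, which needs both subunits, Fars2 acts as a single chain. Pars2, for prolyl-tRNA synthetase, had 19.8 ± 0.35 TPM and Ears2, for the glutamyl enzyme, 17.0 ± 1.64 TPM. The bottom was formed by Mars2 at 11.6, 12.4, 12.0 and 11.5 TPM (11.9 ± 0.43), Nars2 at 8.82, 9.96, 10.4 and 8.53 TPM (9.43 ± 0.90) and Wars2 at 8.48, 9.05, 10.8 and 9.39 TPM (9.42 ± 0.98). Nars2 and Wars2 could not be ordered, and both still stood above 60.7% of protein-coding genes. Of 15 neighbours in the mitochondrial order, 8 kept 1 direction in all 4 libraries.

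For the same amino acid, the cytosolic enzyme was higher than its mitochondrial counterpart in all 4 libraries for 16 of 17 pairs, and lower in all 4 for Lars against Lars2. Eprs and Fars2 each enter 2 of these pairs. By exonic length the largest difference was that of Nars over Nars2, at 5.07 ± 0.18 on the log2 scale (SD, n = 4), 33.5-fold. Mars over Mars2 followed at 4.16 ± 0.05, 17.9-fold, then Wars over Wars2 at 3.39 ± 0.15 and Vars over Vars2 at 3.08 ± 0.06. Intermediate differences were 2.85 ± 0.07 for Hars, 2.44 ± 0.14 for Farsb, 2.00 ± 0.11 for Farsa, 1.81 ± 0.07 for Sars, 1.45 ± 0.07 for Rars, 1.37 ± 0.10 for Tars and 1.29 ± 0.07 for Iars, each over its mitochondrial counterpart. Eprs stood 1.79 ± 0.14 above Ears2 and 1.58 ± 0.07 above Pars2. The smallest differences in favour of the cytosolic enzyme were 0.77 ± 0.10 for Yars, 0.57 ± 0.09 for Aars and 0.52 ± 0.13 for Cars. Lars minus Lars2 was -2.19, -0.62, -1.49 and -0.19 in replicates 1 to 4 (-1.12 ± 0.89), so the size of the excess of Lars2 differed widely between libraries while its direction did not. With 4 libraries the exact two-sided sign-flip permutation test has a smallest possible p of 0.13, which every one of the 17 pairs reached before and after Benjamini-Hochberg adjustment, so no pair could pass 0.05.

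**Figure D2:**
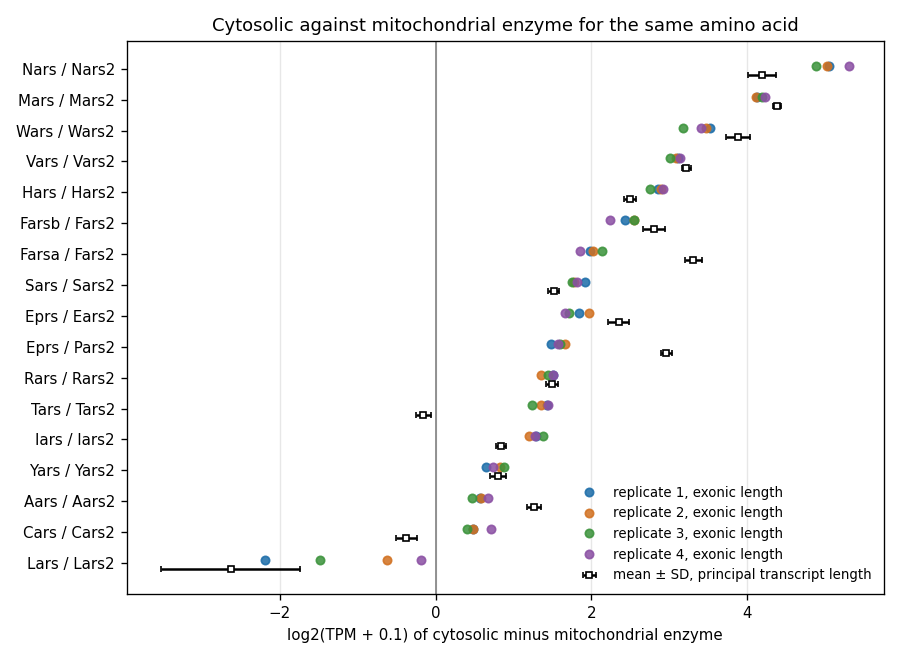
Difference in log2(TPM + 0.1) between the cytosolic and the mitochondrial enzyme for each of 17 pairs. Filled points are the 4 libraries with TPM by exonic length, and open squares with bars are the mean ± SD over the 4 libraries with TPM by principal transcript length. All points of 16 pairs lie right of 0 by exonic length, and the squares of Cars and Cars2, Tars and Tars2, and Lars and Lars2 lie left of it.

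The length given to a gene mattered for single enzymes more than for the lists. The exonic length sums all annotated exons, which for Eprs is 18102 bases against 4906 in its principal GENCODE transcript, for Cars2 7237 against 1902, for Tars2 6932 against 2400 and for Lars2 11089 against 3894. An alternative chosen after the data were seen divided by the bases of the principal transcript that fall within counted exons. On that scale Eprs rose in rank from the 19th to the 12th cytosolic enzyme, at 151.3 ± 6.84 TPM, and Kars led at 377.5 ± 11.3 TPM. The phenylalanyl subunits changed order, with Farsa at 227.3 ± 5.40 and Farsb at 159.9 ± 6.62 TPM. Tars2 at 135.7 ± 7.41 TPM exceeded Tars at 121.4 ± 4.66 TPM, and Cars2 at 82.3 ± 6.30 TPM exceeded Cars at 63.5 ± 5.33 TPM, in all 4 libraries each. Those pairs differed by -0.16 ± 0.10 and -0.37 ± 0.13 (log2, cytosolic minus mitochondrial), so the direction for threonine and cysteine rests on the length chosen. Mars over Mars2 became the largest difference, at 4.38 ± 0.05 (20.8-fold), while Nars over Nars2 came to 4.19 ± 0.18 (18.2-fold). With no length at all, on CPM, the largest was Eprs over Pars2 at 4.12. The difference of the list medians was 2.02 ± 0.06, near the 1.96 by exonic length. Spearman's rho between the 2 scales was 0.73 over the 20 cytosolic and 0.84 over the 16 mitochondrial means, given as a description. Neither length is a measurement of the transcripts these cells used.

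**Figure D3:**
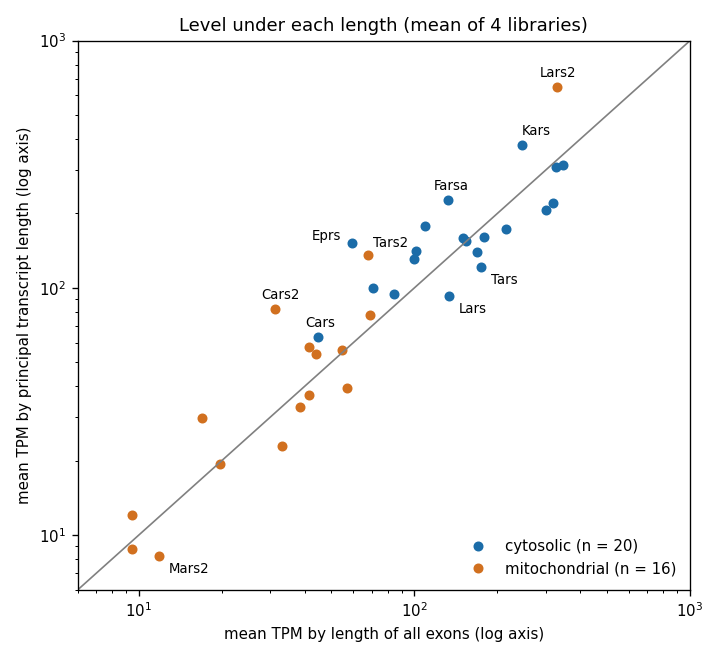
Mean TPM over 4 libraries by the length of all exons (horizontal, log axis) against that by principal transcript length (vertical, log axis), 1 point for each gene. The line marks equal values. Eprs, Cars2, Tars2, Lars2 and Farsa lie well above the line, and Lars and Tars lie below it. For Lars and Tars the bases counted were the same under both lengths, 3856 and 2636. They lie below the line because TPM is scaled to a fixed total in each library.

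The enzymes of the multisynthetase complex overlapped in level with the other cytosolic enzymes. The 8 members of the complex (Dars, Eprs, Iars, Kars, Lars, Mars, Qars and Rars) had a median of 141.6 TPM and the 12 other cytosolic enzymes one of 164.7 TPM. By principal length the medians were 155.0 and 157.0 TPM. Within the complex, levels ran from 59.1 TPM (Eprs) to 244.9 TPM (Kars), and from 92.6 TPM (Lars) to 377.5 TPM (Kars) by principal length. Of the non-enzymatic scaffold proteins, Aimp1 had 41.8 ± 3.15 TPM, Aimp2 160.3 ± 6.04 TPM and Eef1e1 205.5 ± 7.19 TPM by exonic length. By principal length they stood close together, at 144.0 ± 11.2, 155.1 ± 5.76 and 142.5 ± 5.14 TPM. By structural class, the 10 cytosolic genes of class I had a median of 121.6 TPM (44.8 to 327.0). The 10 of class II had one of 177.2 TPM (84.3 to 346.4), so the ranges overlapped over most of their extent. The class medians by principal length were 145.3 and 183.6 TPM. Eprs was counted in class I, although its prolyl part belongs to class II.

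Genes that complete tRNA charging, but are not among the 36, stood near the mitochondrial enzymes. All 11 had 1 TPM or more in every library, and their means lay between 4.39 TPM for Aarsd1, an editing protein for mischarged alanyl-tRNA, and 44.0 TPM for Dtd1, which removes D-amino acids from tRNA. Gatb, Gatc and Qrsl1, the subunits that make mitochondrial glutaminyl-tRNA by transamidation in place of a synthetase, had 25.3, 37.6 and 21.5 TPM. Mtfmt, which formylates the mitochondrial initiator, had 28.6 TPM. Sepsecs and Pstk, which act in selenocysteine formation on tRNA, had 13.5 and 7.40 TPM. These values are by exonic length. By principal length the 11 genes ran from 6.14 to 53.2 TPM, and Pstk at 35.8 TPM exceeded Sepsecs at 12.4 TPM.

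Across the 4 libraries the synthetases varied little, with the exception of Lars2. The coefficient of variation of TPM had a median of 4.09% over the cytosolic and 6.99% over the mitochondrial genes, and of 8.77% over all 14269 genes tested. These sets were not matched for level, which was higher in the cytosolic than in the mitochondrial genes. The medians therefore do not compare variability at equal level. edgeR's goodness-of-fit test, with the dispersion trend over level and Benjamini-Hochberg adjustment, called 66 genes (0.463%) as more variable than genes of similar level. With a single common dispersion it called 6.69% of genes, and the members among them were again Lars2 alone. Lars2 was the 1 call among the 36, with an adjusted p of 5.80e-19 by edgeR and a 3.74-fold span from its highest to its lowest CPM (counts scaled by library size, here with TMM factors). At an unadjusted p under 0.05 edgeR picked 812 of the 14269 tested genes, and again 1 of the 36 members, Lars2. The next widest members were Yars2 at 45.8, 38.9, 38.9 and 42.8 TPM, 1.26-fold, and Ears2 at 15.4, 15.9, 17.8 and 18.9 TPM, 1.20-fold. Mars was narrowest, at 1.01-fold. The same test called 0 of the 3 scaffold genes and 0 of the 11 further genes of tRNA charging. With 0.463% of all genes called, 0 calls would be likely in any lists this short.

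**Figure D4:**
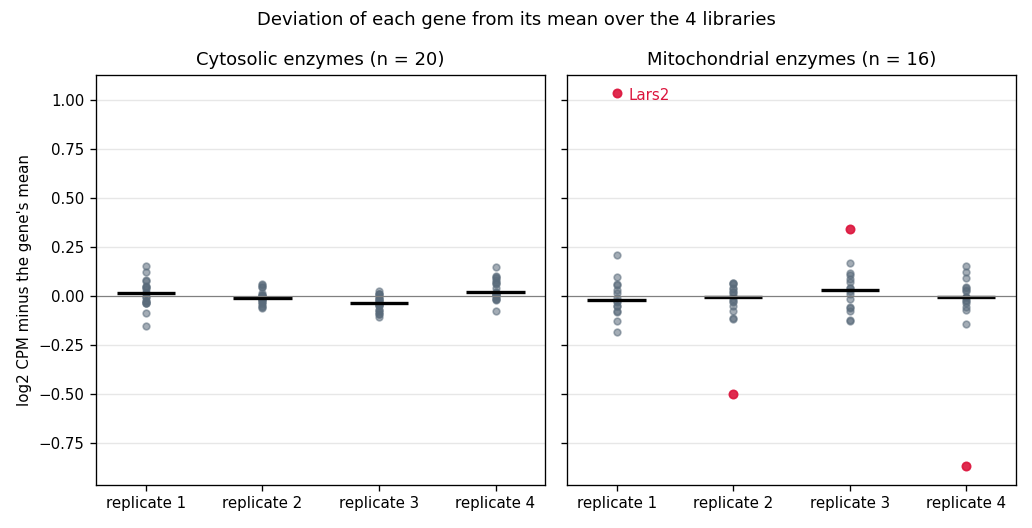
Log2 CPM of each gene minus its mean over the 4 libraries, after TMM scaling, for 20 cytosolic enzymes on the left and 16 mitochondrial enzymes on the right. Black bars are the medians of each list. Lars2, in red, stands away from all other genes in every library, and the medians lie between -0.035 and 0.031.

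The 2 lists stayed level between libraries, with medians within 0.035 of the genes' means. Median log2 CPM relative to each gene's mean was 0.02, -0.01, -0.03 and 0.02 in replicates 1 to 4 for the cytosolic enzymes and -0.02, -0.01, 0.03 and -0.01 for the mitochondrial ones. Replicate 1 held the lowest value of 4 cytosolic and 6 mitochondrial genes, with 31.9% of all tested genes lowest there. Replicate 4 held the highest value of 9 of 20 cytosolic and 3 of 16 mitochondrial genes, with 23.1% of all tested genes highest there. Of the 36 genes, 8 were lower in replicates 1 and 3 than in both 2 and 4, as were 16.2% of all tested genes. They were Aars, Eprs, Hars, Lars, Nars, Sars, Vars and Iars2. Farsa, Qars, Hars2 and Lars2 showed the opposite order, as did 15.5% of tested genes. Base composition moved with the libraries: Spearman's rho between the GC content of the principal transcript and the deviation in log2 CPM was -0.26, 0.01, 0.07 and 0.26 in replicates 1 to 4 over 12139 genes, and -0.41, -0.18, 0.26 and 0.43 over the 35 members other than Lars2. Its part in the small deviations above was not tested.

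Genes of the amino acid response were also expressed. Atf4 itself had 643.3, 667.1, 626.2 and 691.6 TPM (657.0 ± 28.5), above every synthetase mean by exonic length. Of 16 response genes, 15 had 1 TPM or more in every library, where 49.9% of protein-coding genes did. The exception was Slc7a11 at 0.104 TPM on average. Asns, for asparagine synthetase, had 66.3 ± 7.14 TPM, and Phgdh and Psat1 of serine synthesis had 364.0 ± 36.6 and 191.6 ± 7.53 TPM. Others were low, with Trib3 at 11.9, Chac1 at 7.89 and Nupr1 at 1.53 TPM. The median of the 16 means was 89.0 TPM. Replicate 4 held the highest value of 12 of these 16 genes and of 7 of the 12 synthetase genes counted as ATF4 targets, against 23.1% of all tested genes. Median GC content was 55.9% in the response genes, 51.5% in the 12 synthetases and 50.5% over the 12139 genes, and replicate 4 had the highest rho of GC content with the deviation in log2 CPM (0.26 over all of these genes). The part of base composition in these counts was not tested. In replicate 4 the median deviation of the response genes was 0.07 and that of the 12 synthetases 0.04 on the log2 scale. By edgeR 0 of the 12 synthetases and 0 of the 16 response genes were called, against 0.463% of all tested genes. At that share 0 calls would be likely in any lists this short.

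Lars2 lies on chromosome 9 from 123366927 to 123462666 (mm10) and moved with a group of non-coding and mitochondrial RNAs. Its raw counts were 71149, 84088, 54067 and 52257, so that the shallowest library, replicate 1, gave more counts than replicates 3 and 4. Malat1, a nuclear non-coding RNA, had 348, 63.2, 246 and 59.3 TPM in replicates 1 to 4. Rn7sk, the 7SK RNA, had 149.6, 21.0, 80.6 and 15.1 TPM. Mir6236 had 905.3, 258.4, 501.7 and 202.3 TPM, and mt-Nd6, the protein gene on the light strand of mitochondrial DNA, 81.1, 32.8, 63.0 and 23.7 TPM. In all of these, as in Lars2, replicate 1 was highest, replicate 3 second and replicate 4 lowest. The mitochondrial ribosomal RNA genes differed less between libraries. The first, mt-Rnr1, had 471.6, 418.8, 446.0 and 323.6 TPM, in the same order as Lars2, with an adjusted p of 0.0034 by edgeR. The other, mt-Rnr2, had 688, 689, 738 and 554 TPM, which is not that order, and an adjusted p of 0.81 by edgeR. A further 5 RNAs were added after their values were seen. Of these, Gm42418 went from 17331 TPM in replicate 1 to 1083 in replicate 4 and Gm15564 from 57.8 to 12.2 TPM, whereas AA474408 had 0.478, 0.132, 0.231 and 0.314 TPM and did not follow the order of Lars2. The part of these RNAs in the spread of Lars2 was not tested. The other 15 mitochondrial enzymes each spanned 1.26-fold or less. Of the 6 listed RNAs found, edgeR called 5, against 0.463% of all tested genes. These 6 were also chosen with earlier results of these data known, so their calls are no independent result.

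The Lars2 transcript shares sequence with other transcripts near its end. Its principal transcript has 3894 bases in 21 exons, with the coding part ending at base 2905. This transcript was searched for stretches of 25 bases also found in AA474408, Gm15564, Mir6236, Gm42418, Gm26917, Gm23935 and mt-Rnr2. Malat1, Rn7sk, mt-Nd6 and mt-Rnr1 were not searched. Counted by their start, 44 such stretches, which can overlap, were shared with AA474408 on the same strand, between bases 3172 and 3313. Gm15564 shared 28 on the same strand, between bases 3278 and 3329. All of these lie after the coding part. AA474408 itself had only 18, 16, 10 and 31 counts in replicates 1 to 4 and was too low to be tested by edgeR. The Lars2 transcript shared none with Mir6236, Gm42418, Gm26917, Gm23935 or mt-Rnr2. Fragments mapping equally well to several places were not set to be counted, and how the shared stretches bear on the counts was not tested.

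**Figure D5:**
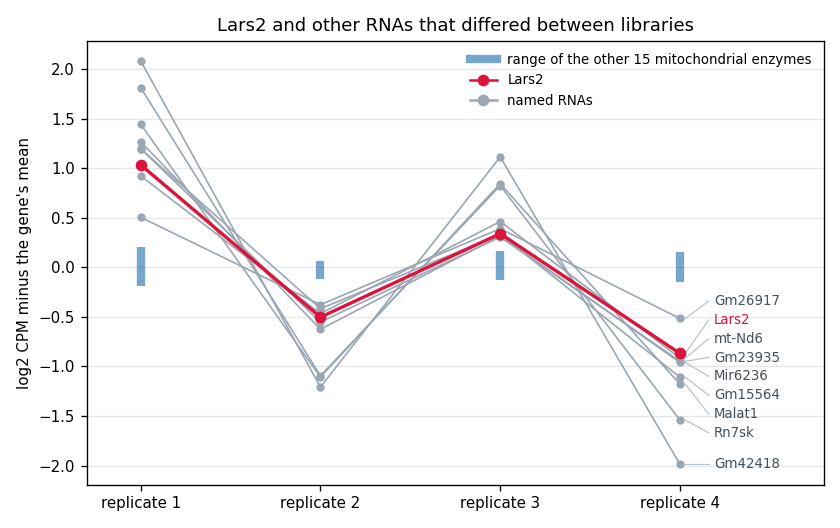
Log2 CPM minus the gene's mean in the 4 libraries for Lars2 (red), 8 RNAs (grey), 4 of them added after their values were seen, and the range of the other 15 mitochondrial enzymes (blue bars). Lines join the values of 1 RNA and imply no order of the libraries. Lars2 and the grey RNAs lie above their mean in replicates 1 and 3 and below it in replicates 2 and 4, while the other enzymes stay near 0. The listed mt-Rnr1 and mt-Rnr2, which are not drawn, do not lie below their mean in replicate 2. Also not drawn is AA474408, added after its values were seen, which did not follow the order of Lars2.

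Across amino acids, the transcript level of the enzyme and the demand for its amino acid, as estimated from transcripts, were close to unrelated by exonic length. This is given as a description, since neither enzyme amount nor protein synthesis was measured. Residues were summed over the coding sequences of 21357 genes, weighted by TPM, and set against the level of the cytosolic enzyme for 19 points, glutamate and proline being joined for Eprs and the phenylalanyl subunits averaged. Spearman's rho was 0.04 and Pearson's r on the log scale 0.08 over the 19 points, which share the same libraries. By principal length they were 0.07 and 0.21. Leucine, the most used single amino acid at 9.55% of residues, had its enzyme at 133.6 TPM. Histidine at 2.37% of residues had its enzyme at 299.0 TPM, and asparagine at 3.45% had its own at 318.8 TPM. Tryptophan and cysteine, the least used at 1.08 and 1.86%, had enzymes at 99.6 and 44.8 TPM.

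A pair of neighbouring genes link the compartments. Hars and Hars2 lie head to head on chromosome 18 on opposite strands, and their annotated starts overlap by 198 bases. Their levels differed by 2.85 on the log2 scale, 7.22-fold. Counting used the strand, so fragments of the overlap were assigned by strand. Eprs and Iars2 lie on opposite strands of chromosome 1 with 33647 bases between them and had 59.1 and 69.1 TPM by exonic length. By principal length the order was the reverse, at 151.3 and 77.8 TPM. Overlap with another gene on the same strand was found only for Aars, 14.3% of whose exonic bases are shared with Exosc6, and fragments there were not assigned to either gene.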

How the data were processed

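Read-pair counts per gene were deposited by the authors, 1 file for each of 4 libraries, made with featureCounts 1.4.6-p4 on exons of GENCODE M13 (mm10) per the file headers, with both ends mapped, reverse strand setting and neither multi-mapping nor multi-overlap options. The other deposited column is the exonic length in bases. STAR stands in the alignment names of the headers, without a version. Symbols came from GENCODE M21 for 50376 of 50600 identifiers (99.6%). Near-identical copies can lose counts.

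TPM was computed from counts and length. Genes were compared inside libraries on log2(TPM + 0.1), a scale that understates differences of low genes. Spread was tested with edgeR 4.0.16 in R 4.3.3 (filterByExpr, TMM, prior count of 2). On simulated counts for this test over 14269 genes, with 200 of them changed in 1 library, 41.5% were recovered at 1.5-fold, 70.5% at 2-fold and 90.5% at 4-fold. False calls numbered 2, 11 and 5 in the same order, and data with no change gave 0 calls. The counts were drawn with the dispersion trend that the test itself assumes, so these shares hold under that model.

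Members and gene lists were chosen with earlier results of these data known. Values by library are given for the 5 highest and 3 lowest genes of each compartment, genes called by edgeR, the 3 widest and the extreme pairs. Demand used coding sequences of GENCODE M21, since no protein table was at hand. Of the genes listed beside Lars2, 1 was not found. With 1 group, leaving out each library, other scalings, filters and lengths were the alternatives. Promoter sequences are from RefSeq.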

Additional observations from a re-analysis of the deposited data

Results flagged for a closer look

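In 4 of 58 values looked at, 1 library stood apart from the other 3 by more than Dixon's limit for 4 samples, where chance alone picks about 1 in 20, or 2.9 of 58. Farsa had 136.0 TPM in replicate 3 and 130.0 to 130.9 TPM in the others. Yars had 69.0 TPM in replicate 2 and 71.3 to 71.5 TPM in the others. Vars2 had 32.2 TPM in replicate 1 and 39.7 to 41.3 TPM in the others. The median TPM of the mitochondrial enzymes was 35.5 in replicate 1 and 39.8 to 40.2 in the others.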

How the results depend on the processing

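The cytosolic enzyme was higher in every library for 16 of 17 pairs, for 15 on CPM without length and for 14 with principal transcript length, an alternative chosen after seeing the data. Tars minus Tars2 was -0.025 on CPM and -0.16 with principal length, and Cars minus Cars2 was -0.37 with principal length, which follows from dividing by another length. The difference of list medians, 1.96, became 2.14 on CPM, 2.08 with means and 1.85 without Gars and Kars, and 1.92 to 1.99 when single libraries were left out. edgeR called 66 genes, 955 with a common dispersion and 41 to 68 with a library left out, the lowest without replicate 1, and the cause was not tested. Lars2 was the 1 member called in each of these fits, with an adjusted p between 1.15e-24 and 9.38e-07. The span over libraries of the median deviation of mitochondrial enzymes, 0.05, became 0.076 with the library total alone and 0.099 with means. Spearman's rho with demand, 0.04, became -0.051 without Gars and Kars, 0.084 with Farsa alone and 0.070 with principal length. Pearson's r, 0.08, became -0.015, 0.085 and 0.21 in the same order. No paired comparison between groups was possible because there is only 1 group. Depth limits the least abundant genes, and no pair can pass 0.05 with 4 libraries.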
